A study of Zea mays with 6 samples.

Results

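The third dehydration was compared with the first one in seedling leaves of B73, an inbred line of maize (Zea mays). The comparison is between 4 of the 6 libraries of the study, the 2 libraries of the group S3 and the 2 of the group S1, chosen by their labels. S3 leaves came from seedlings that had gone through 3 stress exposures, each an air-drying of 2 h with the roots out of soil, separated by watered recovery of 22 h. S1 leaves came from seedlings dried once in the same way. W leaves, also 2 libraries, came from watered seedlings that were not dried. Their levels are given here as a baseline. The W libraries also entered the filter on low values and the estimate of the spread behind each standard error and p-value. All seedlings were of the same inbred line, were about 2 weeks old and had been lifted from soil before the treatments. Several plants were used for each treatment point, and the study's methods call the 2 libraries of a group independent biological samples.

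S3 leaves were collected 2 drying and recovery cycles after S1 leaves. The number of exposures and the time since lifting from soil therefore cannot be told apart in this comparison, since no watered leaves of the later time were analysed here. The levels are FPKM, fragments scaled to transcript length and to the number of mapped fragments of the library, so they are comparable between genes of different length. In a bulk leaf sample, fewer cells of a type and less RNA per cell cannot be told apart.

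A plant that loses water closes its stomata, and the hormone abscisic acid (ABA) drives much of the change in transcripts that follows. Photosynthesis genes commonly fall under water deficit, whereas genes for protective proteins such as dehydrins, for osmolytes and for water channels are regulated in both directions. Leaves that senesce take their chloroplasts apart and send nitrogen out as amides such as asparagine, for which asparagine synthetase, stay-green proteins and autophagy genes are well known.

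Of 39634 genes listed, 20130 had at least 1 FPKM in 2 or more libraries and were tested. Between S3 and S1, 3701 genes were called, which is 18.4% of the genes tested. Of these, 1846 (9.17%) were higher in S3 and 1855 (9.22%) were lower. A call means an adjusted p of at most 0.05 and a difference of at least 2-fold on the log2(FPKM + 1) scale, where the adjusted p is that of limma with the Benjamini-Hochberg method over all genes tested. A log2 change is always S3 minus S1, and on this scale it understates the change of genes with few FPKM. The median log2 change of all genes tested was 0.11, and other scalings of the libraries shifted that median to between -0.01 and 0.03.

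The genes called higher made up a small part of the S1 transcriptome and a large part of that in S3. They held 19.6% and 16.0% of the FPKM summed over all genes in the S3 libraries, against 4.35% and 4.28% in the S1 libraries. Genes called lower held 7.58% and 8.96% in S3, against 27.3% and 26.6% in S1. In W the genes called higher held 5.90% and 5.94% and those called lower 28.7% and 24.9%. Without GRMZM2G306345, a gene listed at 0 in both S1 libraries and described below, the share of the genes called higher was 18.8% and 15.1% in S3, against 4.35% and 4.28% in S1, and 4.3% and 4.46% in W. The genes were chosen for their difference between S3 and S1, so these shares are a description. The median S1 level was 4.502 FPKM for the genes called higher and 17.6 FPKM for those called lower. Changes past 4-fold were seen in 419 genes upward and 478 downward, and changes past 8-fold in 107 upward and 112 downward.

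**Figure D1:**
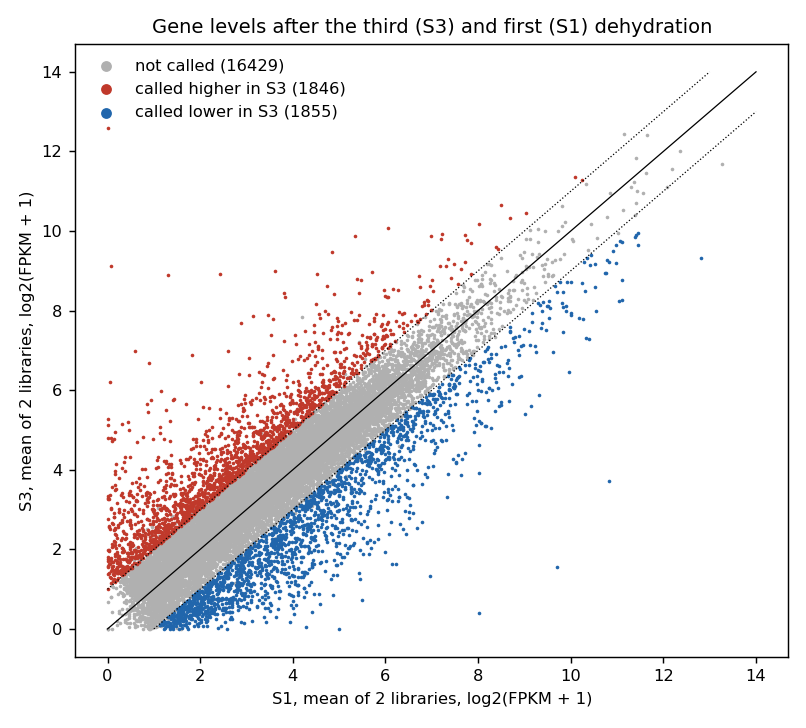
Mean log2(FPKM + 1) of the 2 S3 libraries (vertical axis) against that of the 2 S1 libraries (horizontal axis), 1 point per gene tested. The solid line marks equal levels and the dotted lines 2-fold differences, and the 1846 genes called higher and the 1855 called lower lie on or outside the dotted lines.

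The libraries of a group differed in a typical gene by 0.23 log2 units in S3 and 0.20 in S1 (median absolute difference over the genes tested). The 10 most abundant genes took 6.45% and 6.88% of all FPKM in S3 and 7.33% and 7.39% in S1. The defining transcripts of leaf were abundant in each library, and the 13 genes described as chlorophyll a-b binding summed to 5861 and 9463 FPKM in S3, against 25618 and 25466 FPKM in S1. Of 24 genes described as zein, a storage protein of endosperm, 2 reached 1 FPKM, and the 6 oleosin genes of the marker list summed to no more than 1.74 FPKM in any library. Phosphoenolpyruvate carboxylase is a marker of mesophyll. The 7 genes with its name in their description summed to 184 and 401 FPKM in S3, against 1567 and 1794 FPKM in S1. They include a phosphoenolpyruvate carboxykinase (GRMZM2G001696), so the sum is not of the mesophyll marker alone. The carboxykinase had 49.3 and 45.3 FPKM in S3, against 291 and 424 FPKM in S1. Of 25 genes with pollen in their description, 7 reached 1 FPKM, and they summed to 98.6 and 116 FPKM in S3, against 89.6 and 94.95 FPKM in S1. Of 13 genes with root in their description, 5 reached 1 FPKM, and they summed to 462 and 432 FPKM in S3, against 313 and 351 FPKM in S1. The part of these markers in the results was not tested. How many reads stood behind each value is not known from FPKM.

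The functions below are 58 lists of genes picked by words in the authors' description of each gene. A gene can be in more than 1 list and is counted in each, so counts of different lists are not always separate. Examples are GRMZM5G834303 (cytokinin genes and glycosyltransferases), GRMZM2G134628 (ABA genes and type 2C phosphatases) and GRMZM2G026980 (xyloglucan endotransglucosylases and wall enzymes). A usable description was given for 4026 of the genes tested, of which 415 were called higher and 398 lower, so most called genes have no function in this account. The share of a list is read against the background of 9.17% higher and 9.22% lower. Beside the counts of a list, the other values of the count are given where leaving out 1 library or another scaling, pseudocount or filter moved it by over 1.5 times, except where a count of 0 became 1. In 12 lists the median lay near 0 and changed its sign with the scaling of the libraries, so no direction is read from it. These are LEA proteins, MYB factors, heat shock factors, helicases, histones, tubulin and actin, receptor-like kinases, cytochrome P450s, antioxidant enzymes, phenylpropanoids, wall enzymes and waxes. The 161 genes that the selection rule names had adjusted p between 8.54e-07 and 0.0458 and standard errors of the log2 change between 0.14 and 0.83 (median 0.25). In all of these both S3 libraries lie on the same side of both S1 libraries, which the rule demanded and which held for 70.4% of all genes tested. For 124 of the 161 the call was kept in each of the 6 fits that left out 1 library. The genes described below are among those 124 unless the loss of the call is given or they are said to have been looked up.

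**Figure D2:**
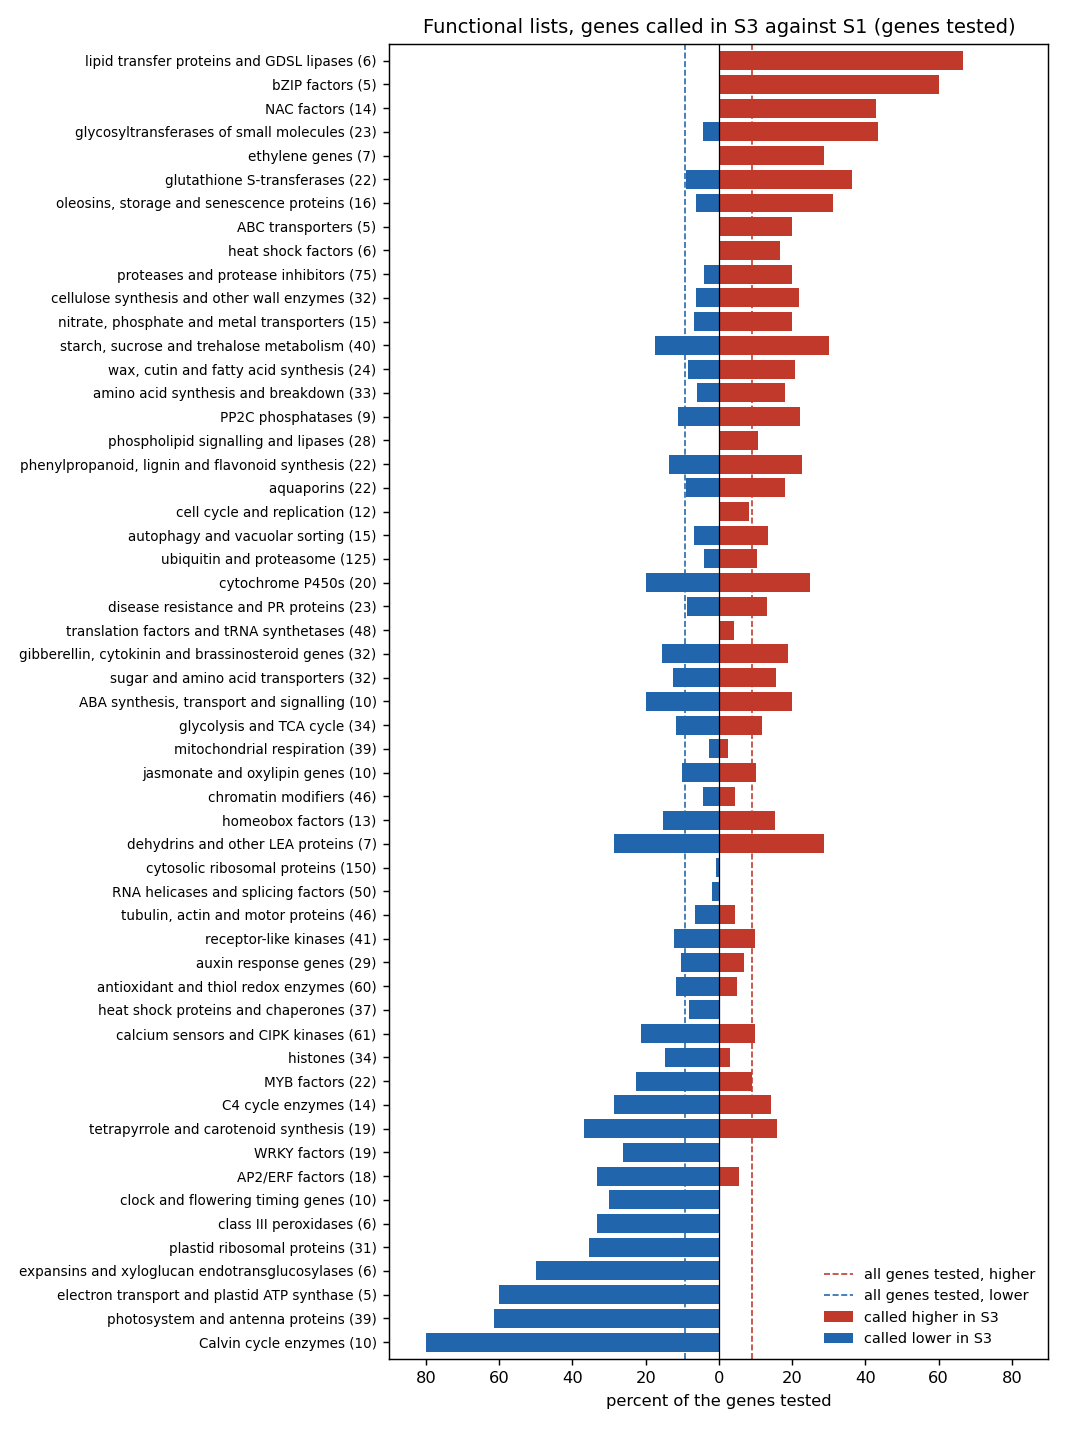
Percent of the tested genes of each functional list called higher (right, red) or lower (left, blue) in S3 than in S1, with the number of genes tested in parentheses. Dashed lines mark the background of 9.17% and 9.22%, and lists with fewer than 5 tested genes are left out. The lists of the photosynthetic apparatus stand at the bottom with up to 80.0% of their genes lower, and lipid transfer proteins, bZIP and NAC factors stand at the top.

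Many photosynthesis genes fell in S3. Of 39 photosystem and antenna genes, which code for the pigment-protein complexes of the thylakoid, 24 fell and 0 rose (2 were higher at an unadjusted p under 0.05), with a median log2 change of -1.52, while 13 fell without a filter on low values, 14 fell without S1 replicate 1 and 15 fell without S3 replicate 1. Together they held 2.5% and 3.45% of all FPKM in S3, against 7.93% and 7.64% in S1. Of 5 genes for electron transport and the plastid ATP synthase, 3 fell and 0 rose (0 at an unadjusted p under 0.05), with a median of -1.502. Of 10 Calvin cycle enzymes, which fix and reduce CO2, 8 fell and 0 rose (0 at an unadjusted p under 0.05), with a median of -1.43.

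A pair of antenna genes fell furthest among the genes with a usable description. Chlorophyll a-b binding protein 2 (GRMZM2G104549) had 2.17 and 1.71 FPKM in S3, against 849 and 821 FPKM in S1 (log2 change -8.15, SE 0.301, adjusted p = 2.77e-05). Chlorophyll a-b binding protein 48 (GRMZM2G120619), a type I protein of light-harvesting complex II, had 7.85 and 18.7 FPKM in S3, against 1898 and 1711 FPKM in S1 (log2 change -7.09, SE 0.44, adjusted p = 9.15e-05). Neither was low in watered leaves, where they had 1594 and 821 FPKM and 2916 and 1478 FPKM. The 13 genes described as chlorophyll a-b binding, which include both, fell less in sum, from 25618 and 25466 FPKM in S1 to 5861 and 9463 FPKM in S3. Reads that could belong to more than 1 antenna gene may have been shared between them, which was not tested. Plastoquinol-plastocyanin reductase (GRMZM2G164558), part of the complex that links the photosystems, had 33.7 and 55.4 FPKM in S3, against 273 and 227 FPKM in S1 (log2 change -2.501). The gamma subunit of the plastid ATP synthase (GRMZM2G048907) had 145 and 186 FPKM in S3, against 493 and 452 FPKM in S1 (log2 change -1.52). In each of these genes the libraries of S3 and S1 were separated by more than the spread within either group.

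The small subunit of ribulose bisphosphate carboxylase (GRMZM2G098520), the enzyme that fixes CO2 in the bundle sheath, had 58.9 and 73.5 FPKM in S3, against 479.6 and 247 FPKM in S1 (log2 change -2.37, SE 0.41, adjusted p = 0.00413). Its level in W was 761 and 367 FPKM, which overlapped S1. Sedoheptulose-1,7-bisphosphatase (AC147602.5_FG004), which helps to regenerate the CO2 acceptor, had 73.3 and 95.2 FPKM in S3, against 365 and 296 FPKM in S1 (log2 change -1.96, adjusted p = 0.00126).

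The 14 enzymes of the C4 cycle, which concentrates CO2 around the bundle sheath, moved in both directions, with 2 higher, 4 lower and a median of -0.12, while 1 rose under median-of-ratios scaling or upper-quartile scaling or with a pseudocount of 2. These counts weigh abundant and scarce genes alike. Their summed levels were lower in S3, with 1974 and 3072 FPKM, against 5023 and 5773 FPKM in S1. A carbonic anhydrase (GRMZM2G145101), 1 of the 2 called higher, had 58.2 and 63.3 FPKM in S3, against 30.8 and 28.4 FPKM in S1. Its call was lost without S3 replicate 2 (log2 change 0.96) and without S1 replicate 2 (log2 change 0.96). Phosphoenolpyruvate carboxylase 1 (GRMZM2G083841), the first carboxylase of the cycle, had 80.3 and 311 FPKM in S3, against 1238 and 1343 FPKM in S1 (log2 change -3.02, SE 0.58, adjusted p = 0.00608). The S3 libraries differed widely from each other in this gene, and both lay far below S1. Phosphoenolpyruvate carboxykinase (GRMZM2G001696), a decarboxylase of the cycle, had 49.3 and 45.3 FPKM in S3, against 291 and 424 FPKM in S1 (log2 change -2.87). A gene described as NADP-dependent malic enzyme (GRMZM2G118770) moved the other way. It had 21.2 and 41.6 FPKM in S3, against 0.165 and 0.07398 FPKM in S1, a log2 change of 4.78, and 0.0513 and 0 FPKM in W, so it was hardly present in S1 and W. This gene is a minor one of its family, since the 5 genes described as malic enzyme summed to 825 and 1101 FPKM in S3, against 1976 and 2184 FPKM in S1. Of 4 photorespiration enzymes, 1 was called lower and 0 higher (1 at an unadjusted p under 0.05), with a median of -0.47, while 0 fell without S3 replicate 1, S1 replicate 1 or S1 replicate 2 or without a filter on low values and 2 fell without S3 replicate 2 or under median-of-ratios scaling. The gene called, glycine cleavage H-protein (GRMZM2G399183), had 48.9 and 72.1 FPKM in S3, against 139 and 121 FPKM in S1, and its call was lost without S3 replicate 1 (log2 change -0.84, adjusted p = 0.0875), without S1 replicate 1 (log2 change -1.01, adjusted p = 0.104) and without S1 replicate 2 (log2 change -1.21, adjusted p = 0.0648), as well as without a filter on low values.

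A gene described as truncated cytosolic orthophosphate dikinase (GRMZM2G306345) carries a value that needs care. It had 5635 and 6695 FPKM in S3 and was listed at 0 in both S1 libraries, with 11253 and 8819 FPKM in W. It was the only gene listed at 0 in both S1 libraries and at 10 FPKM or more in the 4 others, and no gene showed the converse in S3. An exact 0 in a file without counts can be a failed estimate, so no fold change is given for it although the fit called it. A gene described as chloroplastic pyruvate, phosphate dikinase 1 (GRMZM2G097457), looked up after values were seen, had 3.6 and 3.404 FPKM in S3, against 50.1 and 44.5 FPKM in S1 (log2 change -3.42, adjusted p = 7.54e-05). Whether reads were shared between these 2 genes was not tested.

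Genes of pigment synthesis went both ways. Of 19 genes for tetrapyrroles and carotenoids, 3 rose and 7 fell, with a median of -0.35, while 1 rose without S1 replicate 1. Protochlorophyllide reductase B (GRMZM2G036455) and A (GRMZM2G084958) carry out the light-dependent step of chlorophyll synthesis. Reductase B had 1.54 and 2.43 FPKM in S3, against 18.5 and 21.97 FPKM in S1 (log2 change -2.84, SE 0.25, adjusted p = 0.000264). Reductase A had 4.51 and 5.09 FPKM in S3, against 44.3 and 28.3 FPKM in S1 (log2 change -2.65, SE 0.26, adjusted p = 0.000391). Zeta-carotene desaturase (GRMZM2G454952), an enzyme of carotenoid synthesis, rose instead and had 72.9 and 71.6 FPKM in S3, against 20.5 and 19.7 FPKM in S1 (log2 change 1.797, SE 0.15, adjusted p = 0.000211).

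Ribosomal protein genes of the plastid fell in part, and those of the cytosol were rarely called. Of 31 plastid ribosomal protein genes, 11 fell and 0 rose (3 at an unadjusted p under 0.05), with a median of -0.703. Of 150 cytosolic ribosomal protein genes, 1 fell and 0 rose (10 at an unadjusted p under 0.05), with a median of -0.17, while 2 rose without S3 replicate 1 or S1 replicate 1, 3 rose with a pseudocount of 0.1 and 0 fell without S1 replicate 2 or under quantile normalization. Plastid-specific 30S ribosomal protein 2 (GRMZM2G090271) had 34.1 and 45.3 FPKM in S3, against 145 and 185 FPKM in S1 (log2 change -2.03). 50S ribosomal protein L40 (GRMZM2G157007) had 19.7 and 26.8 FPKM in S3, against 103 and 89.1 FPKM in S1 (log2 change -2.01). The 1 cytosolic gene called lower, ribosomal protein L19 (GRMZM2G171444), had 179 and 204 FPKM in S3, against 396 and 434 FPKM in S1, and its call was lost without S1 replicate 2 (log2 change -1.04, adjusted p = 0.054), as well as under quantile normalization. The difference between the lists was not itself tested. Of 48 translation factors and tRNA synthetases 2 rose and 0 fell (11 at an unadjusted p under 0.05), with a median of -0.15, while 0 rose under median-of-ratios scaling, 1 rose without S3 replicate 2 or S1 replicate 1, under upper-quartile scaling or quantile normalization or with a pseudocount of 2 and 2 fell without S3 replicate 2. SUI1 homolog (GRMZM5G835323), an initiation factor, had 736 and 749 FPKM in S3, against 308 and 379 FPKM in S1, and its call was lost without S1 replicate 1 (log2 change 0.97, adjusted p = 0.0609), as well as under median-of-ratios scaling. Elongation factor P (GRMZM2G022662) had 9.46 and 13.3 FPKM in S3, against 5.84 and 4.24 FPKM in S1, and its call was lost without S3 replicate 2 (log2 change 0.81, adjusted p = 0.0406) and without S1 replicate 2 (log2 change 0.84, adjusted p = 0.0637), as well as under median-of-ratios scaling, under upper-quartile scaling, under quantile normalization and with a pseudocount of 2. Of 50 RNA helicases and splicing factors 0 rose (13 at an unadjusted p under 0.05) and 1 fell, with a median of 0.08, while 0 fell without S3 replicate 1 or S1 replicate 1 or with a pseudocount of 2.

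**Figure D3:**
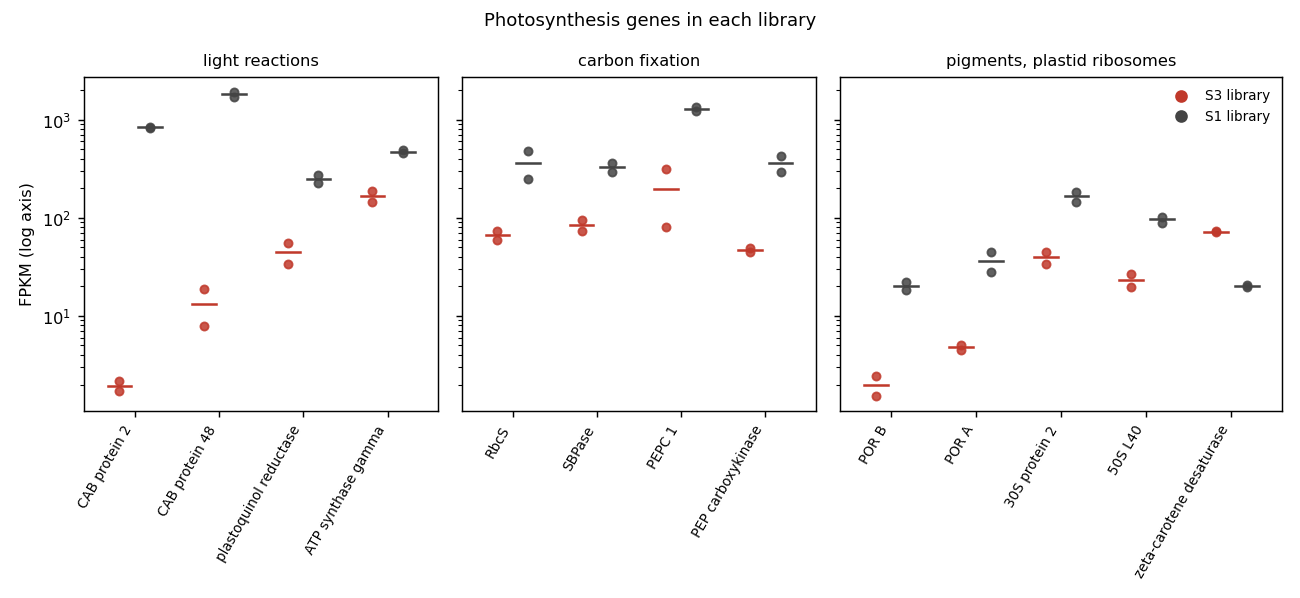
FPKM on a log axis of 13 genes of the light reactions, carbon fixation, pigment synthesis and plastid ribosomes. Each point is a library, red for S3 (left of each pair) and grey for S1, and the short line is the mean of the 2 libraries. In 12 of the 13 genes both S3 libraries lie below both S1 libraries, and in zeta-carotene desaturase both lie above.

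Carbohydrate genes moved in both directions. Of 40 genes for starch, sucrose and trehalose, 12 rose and 7 fell, with a median of 0.19. The small subunit of ADP-glucose pyrophosphorylase (GRMZM2G106213), which makes the substrate of starch synthesis, had 193 and 222 FPKM in S3, against 5.17 and 7.74 FPKM in S1 (log2 change 4.82, SE 0.21, adjusted p = 4.20e-05). A beta-amylase (GRMZM2G025833), which breaks starch down to maltose, had 20.1 and 66.6 FPKM in S3, against 3.07 and 0.5896 FPKM in S1 (log2 change 3.89, SE 0.58) and was listed at 0 in both W libraries. Both genes stood higher in S3 than in S1 by more than the spread, although the libraries of each group differed widely in the beta-amylase. A trehalose-6-phosphate synthase (GRMZM2G068943), which makes a sugar phosphate signal, had 2.49 and 3.76 FPKM in S3, against 36.9 and 33.8 FPKM in S1 (log2 change -3.15, SE 0.18, adjusted p = 7.84e-05). A cell wall beta-fructofuranosidase (GRMZM2G139300), an invertase that splits sucrose, had 11.9 and 6.296 FPKM in S3, against 63.01 and 67.9 FPKM in S1 (log2 change -2.78). Both tested genes of raffinose family synthesis fell, and 0 rose (0 at an unadjusted p under 0.05), with a median of -1.36, while 0 fell without S3 replicate 1 or S1 replicate 1 or without a filter on low values and 1 fell without W replicate 1 or W replicate 2, under quantile normalization or in a fit of the 4 libraries. They were looked up after values were seen, since the list is too short for the selection rule. Galactinol synthase 1 (GRMZM2G165919), which makes the galactose donor, had 73.5 and 148 FPKM in S3, against 375 and 206 FPKM in S1, and its call was lost without S3 replicate 1 (log2 change -0.90, adjusted p = 0.0848) and without S1 replicate 1 (log2 change -0.97, adjusted p = 0.127). Stachyose synthase (GRMZM2G150906) had 20.7 and 51.02 FPKM in S3, against 116 and 58.2 FPKM in S1, and its adjusted p was between 0.069 and 0.26 in the 4 fits in which its call was lost, those without replicate 1 of S3, replicate 1 of S1 or either W library.

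Malate synthase (GRMZM2G102183), an enzyme of the glyoxylate cycle through which cells turn fatty acids into sugar, had the largest log2 change upward of all genes with a described function and above 0 in S1. It had 696 and 338 FPKM in S3, against 1.93 and 8.95 FPKM in S1 (log2 change 6.49, SE 0.63, adjusted p = 0.000393). W libraries had 8.45 and 21.2 FPKM, so the gene was low both in watered leaves and after the first dehydration. Aconitase 2 (GRMZM5G858454), a TCA cycle enzyme, had 82.6 and 107 FPKM in S3, against 33.4 and 29.8 FPKM in S1 (log2 change 1.55). Enolase 1 (GRMZM2G064302), an enzyme of glycolysis, had 33.7 and 32.7 FPKM in S3, against 106 and 113 FPKM in S1 (log2 change -1.69). Of 34 genes for glycolysis and the TCA cycle 4 rose and 4 fell, with a median of 0.16, while 2 fell without S1 replicate 2. Of 39 genes for mitochondrial respiration 1 rose and 1 fell, with a median of 0.27, while 2 rose without S3 replicate 1 or S1 replicate 2 or with a pseudocount of 0.1 and 2 fell without S3 replicate 1 or S3 replicate 2.

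A pair of asparagine synthetase genes and a stay-green gene were higher in S3. Of 33 genes for amino acid synthesis and breakdown, 6 rose and 2 fell, with a median of -0.14, while 0 fell with a pseudocount of 2, 1 fell when at least 5 FPKM were required, 4 fell without S3 replicate 1 and 8 fell without S3 replicate 2. The leading members were asparagine synthetase 3 (GRMZM2G053669) and asparagine synthetase 4 (GRMZM2G078472), which make the amide that carries nitrogen out of leaves. Asparagine synthetase 3 had 1236 and 951 FPKM in S3, against 61.2 and 69.99 FPKM in S1 (log2 change 4.03, SE 0.23, adjusted p = 7.72e-05), and 5.63 and 3.62 FPKM in W. Asparagine synthetase 4 had 84.4 and 80.1 FPKM in S3, against 8.52 and 6.29 FPKM in S1 (log2 change 3.32, SE 0.18, adjusted p = 7.54e-05), and 0.311 and 0.262 FPKM in W. Both genes thus stood in the order S3 above S1 above W in every library. Asparagine synthetase 3 is the only gene named by the selection rule for which primers were found in the study's supplement. The study designed the following PCR primers for it, written 5′ to 3′.
primer 1: ctcgcaagatcaagtcgct
primer 2: cctgtggaactcctccttgt

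The list of oleosins, storage and senescence proteins had 5 of 16 genes higher and 1 lower, with a median of 0.44, while 2 rose with a pseudocount of 2, 3 rose under median-of-ratios scaling or upper-quartile scaling or when at least 5 FPKM were required and 2 fell without S1 replicate 2 or with a pseudocount of 0.1. Senescence-inducible chloroplast stay-green protein 2 (GRMZM2G091837), of a family that starts the breakdown of chlorophyll, had 164 and 95.3 FPKM in S3, against 19.6 and 21.3 FPKM in S1 (log2 change 2.56, SE 0.26, adjusted p = 0.000478), and 3.75 and 2.75 FPKM in W. A caleosin related protein (GRMZM2G090609), of a family of oil body proteins, had 135 and 92.03 FPKM in S3, against 24.5 and 23.4 FPKM in S1 (log2 change 2.17). Senescence-associated protein DH (GRMZM2G041175) did the opposite and had 67.3 and 51.9 FPKM in S3, against 198 and 175 FPKM in S1 (log2 change -1.64).

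Of 15 genes for autophagy and vacuolar sorting 2 rose and 1 fell, with a median of 0.57, while 1 rose without S3 replicate 1, 4 rose without S3 replicate 2 and 0 fell without S1 replicate 2. Autophagy-related 7 (GRMZM2G005304), the activating enzyme that prepares ATG8 for conjugation, had 80.97 and 39.5 FPKM in S3, against 12.2 and 16.8 FPKM in S1 (log2 change 1.91, SE 0.32, adjusted p = 0.00346). Autophagy-related 4b (GRMZM2G173682), the protease that trims ATG8, had 41.9 and 24.5 FPKM in S3, against 11.3 and 12.5 FPKM in S1, but its call was lost without S3 replicate 1 (log2 change 0.98, adjusted p = 0.00795). Of 75 proteases and protease inhibitors 15 rose and 3 fell, with a median of 0.24. The Bowman-Birk inhibitors of this list, small proteins that block serine proteases, did not move together. A putative Bowman-Birk inhibitor (GRMZM2G075315) had 30.3 and 17.97 FPKM in S3, against 3.15 and 3.29 FPKM in S1 (log2 change 2.53). A Bowman-Birk type trypsin inhibitor (GRMZM2G007928) had 2.803 and 6.14 FPKM in S3, against 58.3 and 74.8 FPKM in S1 (log2 change -3.69, SE 0.29, adjusted p = 0.00019). WIP1 precursor (GRMZM2G156632), a wound-induced inhibitor, had 33.2 and 8.53 FPKM in S3, against 1.48 and 1.29 FPKM in S1 (log2 change 2.92, SE 0.51). Another gene described as WIP1 (GRMZM2G011523) had 3.498 and 3.17 FPKM in S3, against 12.02 and 9.29 FPKM in S1 (log2 change -1.42). Reads that could belong to more than one such copy may have been shared between them, which was not tested.

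Of 125 genes for ubiquitin and the proteasome 13 rose and 5 fell, with a median of 0.16, while 8 rose without S1 replicate 1, 3 fell with a pseudocount of 2 or without a filter on low values, 8 fell under median-of-ratios scaling and 10 fell with a pseudocount of 0.1. RING-H2 finger protein ATL1Q (GRMZM2G080079), one of a family of ubiquitin ligases, had 9.097 and 7.37 FPKM in S3, against 0.465 and 0.296 FPKM in S1 (log2 change 2.74). Ubiquitin-conjugating enzyme E2 I (GRMZM2G063931) had 5.54 and 7.24 FPKM in S3, against 42.1 and 30.9 FPKM in S1 (log2 change -2.34), and 5.67 and 7.19 FPKM in W, which overlapped S3.

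Dehydrins and other LEA proteins, which protect membranes and proteins in drying cells, went both ways. Of 7 genes 2 rose and 2 fell, with a median of 0.03, while 0 fell without S3 replicate 1 or S1 replicate 1 or without a filter on low values and 1 fell without S1 replicate 2, W replicate 1 or W replicate 2, under quantile normalization or in a fit of the 4 libraries. Dehydrin DHN1 (GRMZM2G079440), also called RAB-17 and long known as ABA-induced, had 122 and 186 FPKM in S3, against 19.7 and 8.61 FPKM in S1 (log2 change 3.42, SE 0.36, adjusted p = 0.000533), and 0.674 and 0.434 FPKM in W. The other gene of the list that rose (GRMZM2G106622) is described only as ABA-responsive protein, not as a dehydrin or LEA protein. It had 55.6 and 61.98 FPKM in S3, against 20.3 and 10.4 FPKM in S1 (log2 change 1.93), and 1.16 and 1.19 FPKM in W. Both therefore stood higher after the third than after the first dehydration, and both were low in watered leaves. Dehydrin COR410 (GRMZM2G147014) had 116 and 221 FPKM in S3, against 611 and 321 FPKM in S1, and its call was lost without S3 replicate 1 (log2 change -0.9996, adjusted p = 0.0833) and without S1 replicate 1 (log2 change -0.997, adjusted p = 0.116), as well as without a filter on low values. Dehydrin 13 (GRMZM2G169372) had 516 and 789 FPKM in S3, against 1486 and 1159 FPKM in S1 (adjusted p = 0.0458), and its call was lost without S3 replicate 1 (log2 change -0.73, adjusted p = 0.204), without S1 replicate 1 (log2 change -0.86, adjusted p = 0.211), without S1 replicate 2 (log2 change -1.22, adjusted p = 0.101), without W replicate 1 (log2 change -1.04, adjusted p = 0.0516) and without W replicate 2 (log2 change -1.04, adjusted p = 0.0525), as well as under quantile normalization, without a filter on low values and in a fit of the 4 libraries.

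The genes of ABA synthesis and signalling also split. Of 10 genes 2 rose and 2 fell, with a median of -0.303, while 1 rose without S3 replicate 2, S1 replicate 1 or S1 replicate 2. 9-cis-epoxycarotenoid dioxygenase 1 (GRMZM2G014392), which catalyses the committed cleavage in ABA synthesis, had 61.97 and 68.1 FPKM in S3, against 208 and 150.1 FPKM in S1 (log2 change -1.43, SE 0.19, adjusted p = 0.00133). It had 0.519 and 0.391 FPKM in W, so its level in S3 lay between that of W and that of S1. Zeaxanthin epoxidase (GRMZM2G127139), which acts earlier in the same pathway, had 91.7 and 159 FPKM in S3, against 40.02 and 50.1 FPKM in S1, and its call was lost without S1 replicate 1 (log2 change 1.25, adjusted p = 0.0609). SnRK2.2 (GRMZM2G056732), a protein kinase of a family that carries the ABA signal, had 22.1 and 20.6 FPKM in S3, against 97.6 and 86.7 FPKM in S1 (log2 change -2.06, SE 0.16, adjusted p = 0.000191). It had 20.3 and 24.1 FPKM in W, which overlapped S3.

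Type 2C protein phosphatases include the repressors of the ABA receptor pathway. Of 9 such genes 2 rose and 1 fell, with a median of -0.11, while 1 rose without S1 replicate 2. Isoform gamma (GRMZM2G360455) had 112 and 97.2 FPKM in S3, against 48.5 and 41.9 FPKM in S1 (log2 change 1.19). A gene described only as protein phosphatase 2C (GRMZM2G155991) had 40.3 and 36.9 FPKM in S3, against 79.1 and 97.4 FPKM in S1 (log2 change -1.17). The gene described as ABI2 (GRMZM2G134628), named after a repressor in Arabidopsis, had 72.5 and 113 FPKM in S3, against 46 and 34.8 FPKM in S1, and its call was lost without S3 replicate 2 (log2 change 0.84, adjusted p = 0.0272) and without S1 replicate 2 (log2 change 0.96, adjusted p = 0.0595).

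Ethylene and cytokinin genes were among those of the other hormones that changed. Of 7 ethylene genes 2 rose and 0 fell (0 at an unadjusted p under 0.05), with a median of 0.16. A 1-aminocyclopropane-1-carboxylate oxidase (GRMZM2G144668), which carries out the last step of ethylene synthesis, had 190.5 and 95.1 FPKM in S3, against 21.01 and 23.5 FPKM in S1 (log2 change 2.55, SE 0.33, adjusted p = 0.00117). An ethylene-responsive protein (GRMZM2G145974) had 63.3 and 45.03 FPKM in S3, against 7.69 and 9.95 FPKM in S1 (log2 change 2.48). Of 32 genes for gibberellins, cytokinins and brassinosteroids, 6 rose and 5 fell, with a median of -0.13. Cytokinin oxidase 2 (GRMZM2G050997), which degrades cytokinins, had 42.4 and 47.2 FPKM in S3, against 4.402 and 4.41 FPKM in S1 (log2 change 3.08, SE 0.16, adjusted p = 7.54e-05). A pair of genes described as cytokinin-O-glucosyltransferase 2, which stores cytokinins as glucosides, moved in opposite directions. The first (GRMZM2G009125) had 21.2 and 28.7 FPKM in S3, against 4.47 and 7.75 FPKM in S1 (log2 change 1.89). The other (GRMZM5G834303) had 0.179 and 0.09801 FPKM in S3, against 11.8 and 17.4 FPKM in S1 (log2 change -3.76, SE 0.38, adjusted p = 0.000491). Gibberellin 20 oxidase 2 (GRMZM2G099467), an enzyme of gibberellin synthesis, had 1.86 and 4.46 FPKM in S3, against 32.1 and 56.4 FPKM in S1 (log2 change -3.46, adjusted p = 0.00152).

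Jasmonate and oxylipin genes had 1 of 10 higher and 1 lower, with a median of 0.17, while 0 rose without S3 replicate 1 or under median-of-ratios scaling or upper-quartile scaling and 2 fell with a pseudocount of 0.1. The lipoxygenase lox4 (GRMZM2G109056), which oxidises fatty acids, had 1.26 and 1.07 FPKM in S3, against 16.4 and 22.97 FPKM in S1 (log2 change -3.24, SE 0.36, adjusted p = 0.0007). The lipoxygenase lox5 (GRMZM2G102760) had 20.7 and 17.4 FPKM in S3, against 8.798 and 7.92 FPKM in S1, and its call was lost without S3 replicate 1 (log2 change 0.98, adjusted p = 0.0179), as well as under median-of-ratios scaling, under upper-quartile scaling and under quantile normalization. Of 29 auxin response genes 2 rose and 3 fell, with a median of 0.33, while 0 rose when at least 5 FPKM were required, 1 rose with a pseudocount of 2, 4 rose with a pseudocount of 0.1 and 1 fell without S3 replicate 1 or S1 replicate 1. SAUR11 (GRMZM2G429254), of a family of small auxin-induced proteins, had 4.53 and 5.36 FPKM in S3, against 19.3 and 19.2 FPKM in S1 (log2 change -1.77).

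Transcription factor families went in different directions. NAC factors, among which are known regulators of stress and senescence, had 6 of 14 genes higher and 0 lower (1 at an unadjusted p under 0.05), with a median of 0.46. NAC domain-containing protein 68 (GRMZM2G134073) had 66.9 and 31.4 FPKM in S3, against 4.77 and 2.57 FPKM in S1 (log2 change 3.37, SE 0.36, adjusted p = 0.00057). NAC domain-containing protein 21/22 (GRMZM2G181605) had 43.3 and 21.2 FPKM in S3, against 2.92 and 3.91 FPKM in S1 (log2 change 2.84). Of 5 bZIP factors 3 rose and 0 fell (1 at an unadjusted p under 0.05), with a median of 1.15. G-box-binding factor 1 (GRMZM2G122846) had 9.595 and 10.4 FPKM in S3, against 0.737 and 0.122 FPKM in S1 (log2 change 2.97, SE 0.24, adjusted p = 0.00021). G-box-binding factor 4 (GRMZM5G858197) had 52.3 and 44.6 FPKM in S3, against 19.8 and 14.5 FPKM in S1 (log2 change 1.45), and 4.95 and 5.01 FPKM in W.

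AP2/ERF factors, the family that holds the DREB regulators of drought genes, had 1 of 18 genes higher and 6 lower, with a median of -0.59, while 2 rose without S3 replicate 2 or with a pseudocount of 0.1 and 3 fell when at least 5 FPKM were required. A dehydration responsive element binding protein (GRMZM2G301860) had 53.8 and 64.7 FPKM in S3, against 147 and 119 FPKM in S1 (log2 change -1.15, SE 0.19, adjusted p = 0.00326), and 6.38 and 4.99 FPKM in W. Ethylene-responsive transcription factor 3 (GRMZM2G322672) had 1.33 and 1.49 FPKM in S3, against 7.51 and 4.68 FPKM in S1 (log2 change -1.53). An ethylene response factor (GRMZM2G148333) was the only gene of the list called higher, while 4 were higher at an unadjusted p under 0.05. It had 44.2 and 42.2 FPKM in S3, against 16.01 and 12.9 FPKM in S1 (log2 change 1.52). WRKY factors, regulators of defence and stress genes, had 0 of 19 genes higher (2 at an unadjusted p under 0.05) and 5 lower, with a median of -0.28, while 1 fell when at least 5 FPKM were required, 2 fell with a pseudocount of 2 and 3 fell without S1 replicate 2. WRKY74 (GRMZM2G139815) had 3.23 and 2.305 FPKM in S3, against 10.4 and 10.8 FPKM in S1 (log2 change -1.63).

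Of 22 MYB factors 2 rose and 5 fell, with a median of 0.11, while 3 fell with a pseudocount of 2. A P-type R2R3 Myb gene (GRMZM2G031323) had 11.3 and 8.34 FPKM in S3, against 1.17 and 0.448 FPKM in S1 (log2 change 2.599). Myb-related protein Zm38 (GRMZM2G084583) had 13.99 and 14.6 FPKM in S3, against 60.7 and 62.4 FPKM in S1 (log2 change -2.03, SE 0.16, adjusted p = 0.000189). Of 13 homeobox factors 2 rose and 2 fell, with a median of -0.11, while 1 fell without S1 replicate 1. Zinc finger homeodomain protein 1 (GRMZM2G353076) had 53.5 and 13.3 FPKM in S3, against 0.0274 and 0 FPKM in S1 (log2 change 4.79, SE 0.52), so it was barely present in S1, and the S3 libraries differed widely. ATHB-4 (GRMZM2G044752), a homeobox-leucine zipper protein, had 8.26 and 20.7 FPKM in S3, against 1.26 and 0.425 FPKM in S1 (log2 change 2.98). Of 3 bHLH factors 0 rose and 0 fell (1 and 2 at an unadjusted p under 0.05), with a median of -0.65.

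Few heat stress genes were called. Of 6 heat shock factors 1 rose and 0 fell (1 at an unadjusted p under 0.05), with a median of 0.001, while 0 rose without S1 replicate 2. Heat shock factor protein 1 (GRMZM2G105348) had 57.8 and 61.1 FPKM in S3, against 29.2 and 17.8 FPKM in S1, and its call was lost without S1 replicate 2 (log2 change 0.999, adjusted p = 0.0197). Of 37 heat shock proteins and chaperones 3 fell and 0 rose (2 at an unadjusted p under 0.05), with a median of -0.24, while 5 fell without S3 replicate 1 or S3 replicate 2. A dnaJ-like protein (GRMZM2G023786), a co-chaperone, had 3.64 and 2.85 FPKM in S3, against 19.3 and 17.3 FPKM in S1 (log2 change -2.19). Of 10 clock and flowering timing genes 3 fell and 0 rose (1 at an unadjusted p under 0.05), with a median of -0.65, while 1 fell without S1 replicate 1 and 5 fell without S3 replicate 2. CONSTANS-LIKE 16 (GRMZM2G107886), a zinc finger protein of the family of the flowering regulator CONSTANS, had 1.38 and 0.424 FPKM in S3, against 25.7 and 20.2 FPKM in S1 (log2 change -3.69, SE 0.25, adjusted p = 0.000127), and 48.4 and 48.7 FPKM in W.

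**Figure D4:**
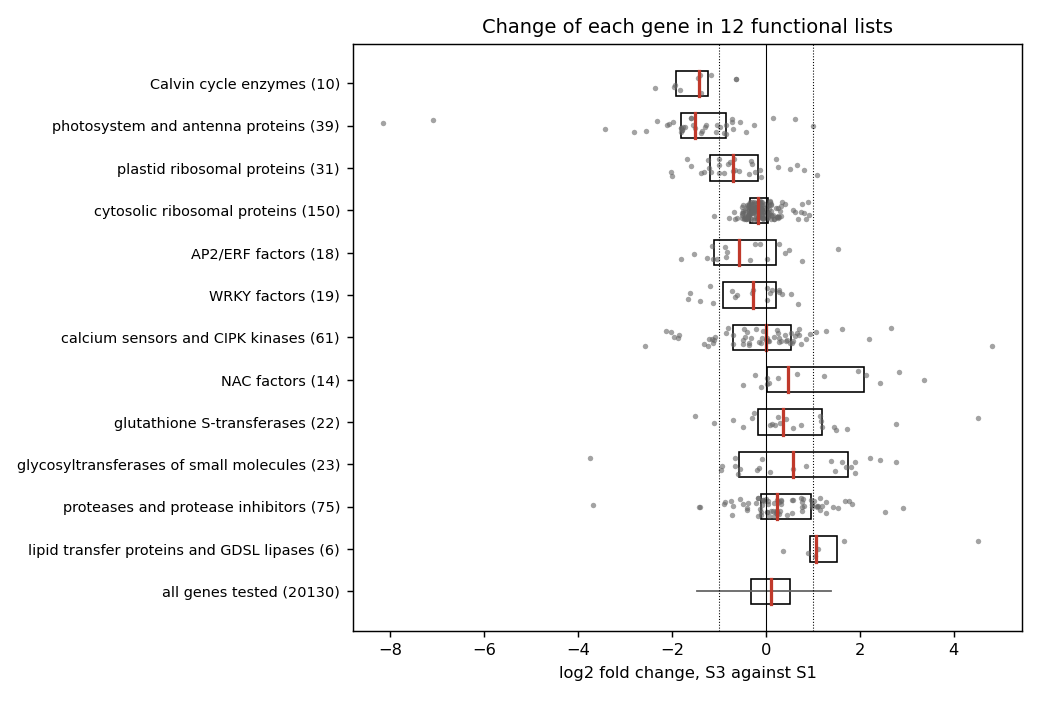
Log2 change of S3 against S1 for each gene of 12 functional lists and for all 20130 genes tested, with the number of genes in parentheses. Boxes span the quartiles, the red line is the median, points are genes, the grey line of the lowest row spans the 5th to 95th percentile and dotted lines mark 2-fold changes. Calvin cycle and photosystem genes lie to the left with medians of -1.43 and -1.52, cytosolic ribosomal protein genes lie around -0.17, and lipid transfer proteins lie to the right with a median of 1.07.

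Calcium sensors and kinases moved in both directions. Of 61 genes of this list, which decode calcium signals, 13 fell and 6 rose, with a median of -0.01. A touch-induced calmodulin-related protein 2 (GRMZM2G097900) had 6.38 and 5.23 FPKM in S3, against 50.99 and 30.4 FPKM in S1 (log2 change -2.57, SE 0.28, adjusted p = 0.000613), and 0.384 and 0.989 FPKM in W. A calcium-dependent protein kinase (GRMZM2G321239) had 9.82 and 9.51 FPKM in S3, against 38.4 and 46.3 FPKM in S1 (log2 change -2.02). The largest change of the list was upward, in a calcium-dependent protein kinase described as isoform AK1 (GRMZM2G178074), which had 37 and 65.8 FPKM in S3, against 0.981 and 0.625 FPKM in S1 (log2 change 4.81, SE 0.27, adjusted p = 7.72e-05). Calcineurin subunit B (GRMZM2G125838), a calcium-binding protein, had 57.3 and 61.9 FPKM in S3, against 7.59 and 9.701 FPKM in S1 (log2 change 2.66).

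Of 41 receptor-like kinases 4 rose and 5 fell, with a median of 0.08. A leucine-rich repeat transmembrane kinase (GRMZM2G121573) had 18.4 and 34.9 FPKM in S3, against 0.119 and 0.0273 FPKM in S1 (log2 change 4.62, SE 0.28, adjusted p = 8.42e-05). Somatic embryogenesis receptor-like kinase 2 (GRMZM2G115420), a co-receptor, had 97.6 and 46 FPKM in S3, against 19.2 and 23.7 FPKM in S1 (log2 change 1.61). Lectin-like receptor kinase 7 (GRMZM2G093210) had 2.12 and 1.26 FPKM in S3, against 10.9 and 8.96 FPKM in S1 (log2 change -2.03). A gene described as VQ motif family protein (GRMZM2G061941), of a family that binds WRKY factors, was among the 10 largest changes upward of the described genes. It had 54.1 and 21.6 FPKM in S3, against 0.198 and 0.299 FPKM in S1 (log2 change 4.82).

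Water channels changed in a member-specific way. Of 22 aquaporin genes 4 rose and 2 fell, with a median of 0.24, while 2 rose without S1 replicate 1 or S1 replicate 2 or without a filter on low values and 1 fell without S3 replicate 1 or without a filter on low values. The tonoplast aquaporin TIP4-2 (GRMZM2G108273) had 457 and 424 FPKM in S3, against 51.04 and 32.6 FPKM in S1 (log2 change 3.4002, SE 0.22, adjusted p = 0.000109), and 10.6 and 11.7 FPKM in W. The tonoplast aquaporin TIP2-1 (GRMZM2G027098) had 27.2 and 35.8 FPKM in S3, against 226 and 134 FPKM in S1 (log2 change -2.44, SE 0.26, adjusted p = 0.000584), and 46.9 and 45.9 FPKM in W. After the first dehydration TIP2-1 was thus the more abundant of this pair, and after the third it was TIP4-2, by FPKM in every library of each group. The plasma membrane aquaporin PIP1-1 (GRMZM2G174807) had 301 and 667 FPKM in S3, against 184 and 158 FPKM in S1, and its call was lost without S3 replicate 2 (log2 change 0.82, adjusted p = 0.0597), without S1 replicate 1 (log2 change 1.501, adjusted p = 0.0754) and without S1 replicate 2 (log2 change 1.28, adjusted p = 0.111), as well as without a filter on low values. PIP1-5 (GRMZM2G081843) of the same membrane had 2.79 and 4.35 FPKM in S3, against 18.6 and 7.92 FPKM in S1, and its call was lost without S3 replicate 1 (log2 change -1.31, adjusted p = 0.0644) and without S1 replicate 1 (log2 change -0.99, adjusted p = 0.0662), as well as without a filter on low values.

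Of 32 sugar and amino acid transporters 5 rose and 4 fell, with a median of -0.02, while 2 rose with a pseudocount of 2, 3 rose without S1 replicate 2, without a filter on low values or when at least 5 FPKM were required, 2 fell without a filter on low values and 7 fell under median-of-ratios scaling. An amino acid/polyamine transporter (GRMZM2G137161) had 5.73 and 13.7 FPKM in S3, against 0.392 and 0.522 FPKM in S1 (log2 change 2.77). An amino acid carrier (GRMZM2G164814) had 10 and 8.08 FPKM in S3, against 1.69 and 0.921 FPKM in S1 (log2 change 2.14). Peptide transporter PTR2 (GRMZM2G012306) had 2.098 and 1.93 FPKM in S3, against 9.51 and 7.81 FPKM in S1 (log2 change -1.68). Of 15 transporters of nitrate, phosphate and metals 3 rose and 1 fell, with a median of 0.27, while 0 fell without S3 replicate 1 or S1 replicate 1 and 2 fell with a pseudocount of 0.1. Sulfate transporter 3.4 (GRMZM2G444801) had 26.96 and 13.8 FPKM in S3, against 4.59 and 3.73 FPKM in S1 (log2 change 1.99). Zinc transporter 4 (GRMZM2G015955) had 143 and 194 FPKM in S3, against 44.1 and 44.05 FPKM in S1 (log2 change 1.89). Of 5 ABC transporters 1 rose and 0 fell (1 at an unadjusted p under 0.05), with a median of 0.51, while 0 rose without S3 replicate 1 or S1 replicate 1 and 2 rose without S1 replicate 2. Multidrug resistance associated protein 1 (GRMZM2G113203) had 79.5 and 44.3 FPKM in S3, against 21.4 and 26.6 FPKM in S1, and its call was lost without S3 replicate 1 (log2 change 0.87, adjusted p = 0.0308) and without S1 replicate 1 (log2 change 1.13, adjusted p = 0.0712).

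Several enzymes that conjugate small molecules were higher in S3. Of 22 glutathione S-transferases, which join glutathione to reactive compounds, 8 rose and 2 fell, with a median of 0.36, while 5 rose with a pseudocount of 2 or when at least 5 FPKM were required and 1 fell without S3 replicate 1, S1 replicate 1 or S1 replicate 2, with a pseudocount of 2 or when at least 5 FPKM were required. Glutathione transferase 19 (GRMZM2G335618) had 358 and 289 FPKM in S3, against 11.8 and 14.7 FPKM in S1 (log2 change 4.51, SE 0.22, adjusted p = 6.39e-05). GSTU6 (GRMZM2G146913) had 4.14 and 8.04 FPKM in S3 and was listed at 0 in both S1 libraries and both W libraries, so no fold change is given. Glutathione transferase 24 (GRMZM2G032856) went down and had 2.82 and 3.699 FPKM in S3, against 10.4 and 11.9 FPKM in S1 (log2 change -1.52).

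Of 23 glycosyltransferases of small molecules, which add sugars to hormones and phenolics, 10 rose and 1 fell, with a median of 0.56, while 5 rose when at least 5 FPKM were required, 2 fell without S1 replicate 2 or under median-of-ratios scaling, 3 fell without S3 replicate 2 and 5 fell with a pseudocount of 0.1. The gene called lower is the cytokinin-O-glucosyltransferase 2 (GRMZM5G834303) given above. An anthocyanidin 5,3-O-glucosyltransferase (GRMZM2G455075) had 33.8 and 39.2 FPKM in S3, against 5.78 and 6.22 FPKM in S1 (log2 change 2.42, adjusted p = 0.00021). Of 20 cytochrome P450s 5 rose and 4 fell, with a median of 0.09, while 3 rose without S3 replicate 1 or when at least 5 FPKM were required and 2 fell without S1 replicate 1. CYP71W7 (GRMZM2G171118) had 14.5 and 8.96 FPKM in S3, against 0.668 and 0.59 FPKM in S1 (log2 change 2.93). Cytochrome P450 10 (GRMZM2G370745) had 2.23 and 1.02 FPKM in S3, against 6.63 and 5.15 FPKM in S1 (log2 change -1.42).

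Of 60 antioxidant and thiol redox enzymes 3 rose and 7 fell, with a median of 0.11, while 4 fell without S3 replicate 1. A metallothionein-like protein of type 2 (GRMZM2G070912), a cysteine-rich metal binder, had 185 and 73.6 FPKM in S3, against 11.1 and 10.7 FPKM in S1 (log2 change 3.305, SE 0.39, adjusted p = 0.000864). A peroxiredoxin (GRMZM2G012276), which reduces peroxides, had 5.94 and 9.02 FPKM in S3, against 45.8 and 32.4 FPKM in S1 (log2 change -2.25), and 73.6 and 53.1 FPKM in W. Glutaredoxin S14 (GRMZM2G013695) had 18.04 and 12.9 FPKM in S3, against 3.51 and 4.91 FPKM in S1 (log2 change 1.66). Of 6 class III peroxidases 2 fell and 0 rose (0 at an unadjusted p under 0.05), with a median of -0.06, while 1 fell without S1 replicate 2 or when at least 5 FPKM were required.

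Chitinases, enzymes that cut fungal cell walls, were among the defence genes called. Of 23 disease resistance and PR genes 3 rose and 2 fell, with a median of -0.12, while 1 rose when at least 5 FPKM were required and 4 fell with a pseudocount of 0.1. Endochitinase PR4 (GRMZM2G129189) had 2.29 and 1.87 FPKM in S3, against 62.8 and 77.1 FPKM in S1 (log2 change -4.52, SE 0.43, adjusted p = 0.000382), and 1.98 and 7.71 FPKM in W. Pathogenesis related protein-5 (GRMZM2G402631) had 22.2 and 18.7 FPKM in S3, against 156 and 277 FPKM in S1 (log2 change -3.29, SE 0.35, adjusted p = 0.00058). Endochitinase A (GRMZM2G051943), described as the chitinase of seeds, was higher and had 19.3 and 8.62 FPKM in S3, against 0.112 and 0.271 FPKM in S1 (log2 change 3.56). Endochitinase B (GRMZM2G005633) had 8.89 and 4.89 FPKM in S3, against 0.256 and 0.125 FPKM in S1 (log2 change 2.68).

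**Figure D5:**
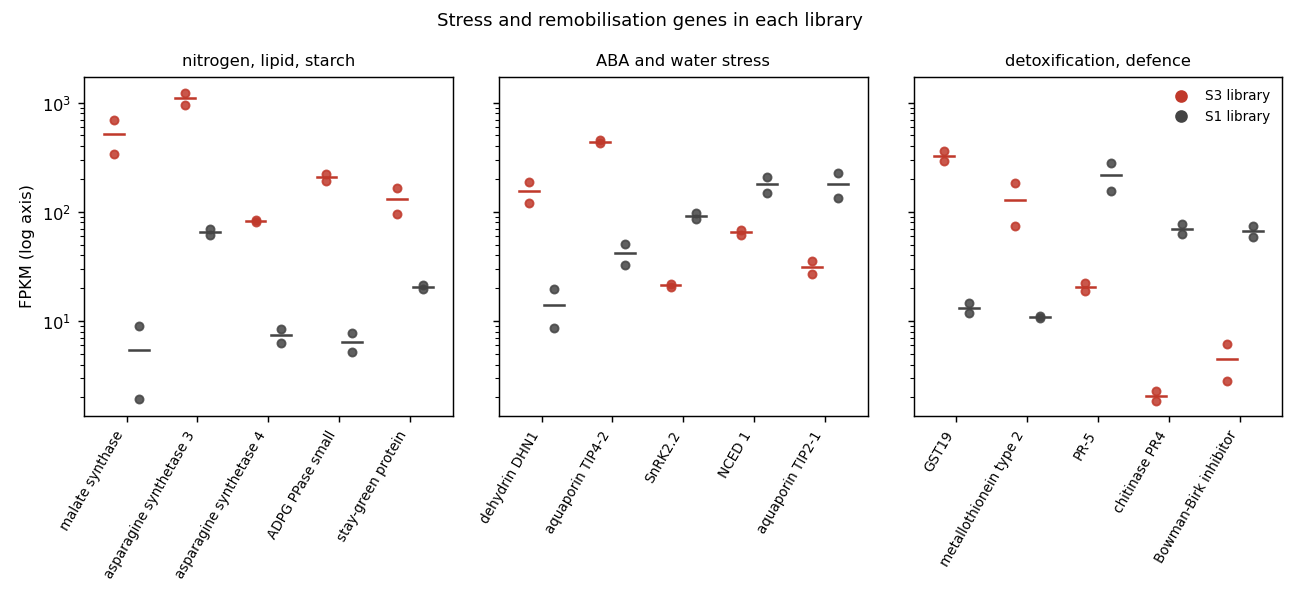
FPKM on a log axis of 15 genes for nitrogen, lipid and starch metabolism, ABA and water stress, and detoxification and defence. Each point is a library, red for S3 (left of each pair) and grey for S1, and the short line is the mean of the 2 libraries. Both S3 libraries lie above both S1 libraries in 9 genes and below them in 6, namely SnRK2.2, NCED 1 (9-cis-epoxycarotenoid dioxygenase 1), TIP2-1, PR-5, the chitinase PR4 and the Bowman-Birk inhibitor.

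Some of the genes that loosen growing cell walls were lower in S3. Of 6 expansins and xyloglucan endotransglucosylases 3 fell and 0 rose (1 at an unadjusted p under 0.05), with a median of -1.52. Xyloglucan endotransglycosylase homolog 1 (GRMZM2G026980) had 39.5 and 22.9 FPKM in S3, against 171 and 336 FPKM in S1 (log2 change -2.95, SE 0.35, adjusted p = 0.000864), and 40.98 and 46.8 FPKM in W. Expansin-like 3 (GRMZM2G026147) had 20.1 and 17.1 FPKM in S3, against 70.9 and 61.9 FPKM in S1 (log2 change -1.78), and 27.8 and 21.5 FPKM in W. In both genes the S3 libraries lay below those of W and the S1 libraries above them. Of 32 genes for cellulose synthesis and other wall enzymes 7 rose and 2 fell, with a median of 0.03, while 4 rose without S3 replicate 1 or under median-of-ratios scaling or upper-quartile scaling and 5 fell without S3 replicate 2. Glucan endo-1,3-beta-glucosidase 4 (GRMZM5G860761) had 11.6 and 7.07 FPKM in S3, against 1.51 and 1.14 FPKM in S1 (log2 change 2.12). Cellulose synthase 5 (GRMZM2G111642) had 14 and 22.7 FPKM in S3, against 53.3 and 43.3 FPKM in S1 (log2 change -1.38).

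Of 22 genes for phenylpropanoids, lignin and flavonoids 5 rose and 3 fell, with a median of 0.02, while 3 rose when at least 5 FPKM were required. Caffeic acid 3-O-methyltransferase (AC196475.3_FG004), of lignin synthesis, had 88.2 and 72.5 FPKM in S3, against 21.7 and 17.5 FPKM in S1 (log2 change 1.98). Dihydroflavonol-4-reductase (GRMZM2G033555), of anthocyanin synthesis, had 34.4 and 31.04 FPKM in S3, against 6.97 and 8.35 FPKM in S1 (log2 change 1.96). The gene described as cinnamyl alcohol dehydrogenase of brown-midrib 1 (GRMZM5G844562), also of lignin synthesis, had 0.819 and 1.33 FPKM in S3, against 10.1 and 4.73 FPKM in S1 (log2 change -1.95).

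Of 6 lipid transfer proteins and GDSL lipases 4 rose and 0 fell (0 at an unadjusted p under 0.05), with a median of 1.07, while 1 rose without S1 replicate 2 and 2 rose without S3 replicate 2 or under median-of-ratios scaling or upper-quartile scaling. A nonspecific lipid-transfer protein (GRMZM2G387360), a small carrier of lipids, had 1433 and 610.5 FPKM in S3, against 26.7 and 58.8 FPKM in S1 (log2 change 4.52, SE 0.47, adjusted p = 0.000506). Of 24 genes for waxes, cutin and fatty acids 5 rose and 2 fell, with a median of 0.09, while 1 fell without S3 replicate 1 or S1 replicate 1 or with a pseudocount of 2. The zeta-carotene desaturase given above, an enzyme of carotenoid synthesis, is also a member of this list by its description and counts among the 5 that rose. An acyl-desaturase (AC215690.3_FG002) had 84.4 and 52.9 FPKM in S3, against 14.7 and 12.8 FPKM in S1 (log2 change 2.204). Of 28 genes for phospholipid signalling and lipases 3 rose and 0 fell (2 at an unadjusted p under 0.05), with a median of 0.305, while 5 rose with a pseudocount of 0.1. A phosphatidylinositol transfer protein (GRMZM2G142315) had 109 and 111 FPKM in S3, against 19.4 and 18.2 FPKM in S1 (log2 change 2.49). A phospholipase C (GRMZM2G078650), which releases second messengers from membrane lipids, had 16.4 and 17.2 FPKM in S3, against 2.87 and 3.101 FPKM in S1 (log2 change 2.16). Undecaprenyl pyrophosphate synthetase (GRMZM2G054803), an enzyme that makes long prenyl chains, had 822 and 621 FPKM in S3, against 24.6 and 31.8 FPKM in S1 (log2 change 4.63, SE 0.27, adjusted p = 7.84e-05).

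Of 34 histone genes 1 rose and 5 fell, with a median of 0.003, while 2 rose without S3 replicate 1 and 3 fell with a pseudocount of 2. Histone H2B.3 (GRMZM2G057852) had 20.5 and 18.9 FPKM in S3, against 1.68 and 1.53 FPKM in S1 (log2 change 2.99, SE 0.16, adjusted p = 7.54e-05). Histone H3.2 (GRMZM2G418258) had 1.58 and 1.599 FPKM in S3, against 6.02 and 6.82 FPKM in S1 (log2 change -1.52). Of 46 chromatin modifiers 2 rose and 2 fell, with a median of 0.13, while 0 rose without S3 replicate 2 or under median-of-ratios scaling, 1 rose without S1 replicate 1 or S1 replicate 2, under upper-quartile scaling or quantile normalization, with a pseudocount of 2 or without a filter on low values, 4 rose with a pseudocount of 0.1 and 1 fell without S1 replicate 1 or when at least 5 FPKM were required. Lysine-specific histone demethylase 1 (GRMZM2G000052), which removes methyl groups from histone H3, had 19.4 and 20.7 FPKM in S3, against 78.1 and 65.1 FPKM in S1 (log2 change -1.78, SE 0.17, adjusted p = 0.000382), and 9.54 and 7.72 FPKM in W. HMG-like nucleosome/chromatin assembly factor D (GRMZM2G013821) had 42.4 and 81.6 FPKM in S3, against 30.1 and 23.3 FPKM in S1, and its call was lost without S3 replicate 2 (log2 change 0.66, adjusted p = 0.0635), without S1 replicate 1 (log2 change 1.302, adjusted p = 0.0554) and without S1 replicate 2 (log2 change 0.95, adjusted p = 0.123), as well as under median-of-ratios scaling and without a filter on low values. The histone methyltransferases EZ2 (GRMZM5G875502) and EZ1 (GRMZM2G157820), of the Polycomb group, had opposite differences. EZ2 had 16.1 and 19.05 FPKM in S3, against 8.75 and 7.52 FPKM in S1, and its call was lost without S3 replicate 2 (log2 change 0.91, adjusted p = 0.0126) and without S1 replicate 2 (log2 change 0.93, adjusted p = 0.0238), as well as under median-of-ratios scaling, under upper-quartile scaling, under quantile normalization and with a pseudocount of 2. EZ1 had 0.713 and 1.71 FPKM in S3, against 6.34 and 4.002 FPKM in S1, and its call was lost without S1 replicate 1 (log2 change -1.22, adjusted p = 0.0655).

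Of 12 genes for the cell cycle and replication 1 rose and 0 fell (0 at an unadjusted p under 0.05), with a median of 0.34, while 0 rose without S3 replicate 1, with a pseudocount of 2 or when at least 5 FPKM were required and 2 rose with a pseudocount of 0.1. Of 46 tubulin, actin and motor genes 2 rose and 3 fell, with a median of 0.08, while 4 rose without S1 replicate 2 and 1 fell with a pseudocount of 2. A pair of genes described as tubulin alpha-6 chain moved in opposite directions. The first (GRMZM2G040559) had 271 and 169 FPKM in S3, against 25.4 and 36.5 FPKM in S1 (log2 change 2.77, SE 0.27, adjusted p = 0.000401). The other (GRMZM2G083243) had 16.9 and 19.7 FPKM in S3, against 183 and 221 FPKM in S1 (log2 change -3.39, SE 0.19, adjusted p = 7.72e-05). Near-identical copies can share reads, so the split between this pair is uncertain, and it was not tested. TORTIFOLIA1 (GRMZM2G078725), a microtubule-associated protein, had 8.95 and 9.09 FPKM in S3, against 0.398 and 0.1204 FPKM in S1 (log2 change 3.002).

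The other genes among the 10 largest changes downward of the described genes had less informative descriptions. A UDP-forming alpha-1,4-glucan-protein synthase (GRMZM2G073725) had 39.9 and 42.7 FPKM in S3, against 495 and 541 FPKM in S1 (log2 change -3.62, SE 0.41, adjusted p = 0.000704), and 24.4 and 68.9 FPKM in W. ATPase 3 (GRMZM2G138770) had 5.68 and 7.84 FPKM in S3, against 89.7 and 91.3 FPKM in S1 (log2 change -3.57), and 9.56 and 23.6 FPKM in W. A gene described only as transfactor (GRMZM2G124495) had 6.79 and 4.39 FPKM in S3, against 62.8 and 75.7 FPKM in S1 (log2 change -3.43), and 39.1 and 69.8 FPKM in W. The synthase and ATPase 3 were highest in S1, whereas the transfactor gene overlapped between S1 and W.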

How the data were processed

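RNA was sequenced from leaves of B73 seedlings of the groups S3, S1 and W, with 2 libraries each. The authors mapped reads with bowtie and tophat to B73 RefGen_v2 with the Filtered Gene Set 5b and computed FPKM with cuffdiff, and they deposited 1 FPKM value per gene and library. The submitters' processing notes name CASAVA 1.8.2 and TopHat 0.12.8. A deposited table of the whole series holds condition means and the authors' own fold changes and q-values, of which only the S1 FPKM value was used.

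The S1 library values come from the cuffdiff run on S1 and W, and the S3 values from the run on S3 and S1. Dividing the mean of the S1 libraries by the S1 FPKM of the table gave a median of 0.993 (within 0.5% for 97.5% of genes above 1 FPKM), and the S3 values were multiplied by it. Genes with at least 1 FPKM in 2 or more of the 6 libraries were fitted on log2(FPKM + 1) with limma 3.58.1 in R 4.3.3 (lmFit, eBayes with a trend) in one fit of all 6 libraries. The p-values of the contrast S3 minus S1 were adjusted by the Benjamini-Hochberg method over 20130 genes. Genes were called at an adjusted p of at most 0.05 and a 2-fold change on that scale. The study's methods set the same limits for their own q-values and fold changes and add a condition on the lowest FPKM values, which was not applied here. The p-values rest on the spread between libraries within the groups, pooled over W, S1 and S3 and drawn toward its trend with the level. They do not measure the spread of S3 or S1 by itself. Where 1 library of S3 or S1 was left out, the spread came wholly from the other groups. Read depth per value is unknown from FPKM, so no counting interval is given.

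The 58 lists were picked by words in the description column. False matches that were recognised were removed after the descriptions were read and before the fit. Some remain, such as zeta-carotene desaturase in the list of waxes, cutin and fatty acids. No description is given for 19801 genes. The selection rule names, for each list with at least 3 tested genes, the 2 called genes with the largest change in each direction and at least 5 FPKM in S3 or S1, and the 10 largest in each direction over all described genes, always without overlap of the libraries. Other genes were looked up after values were seen. The comparison, the lists and the rule were chosen with earlier results of these data known. Gene names are those of the files, supplemented by a RefSeq table (18773 models matched) whose assembly differs, so no coordinates are given. Python 3.11.15 with pandas 2.3.3, numpy 2.4.6 and matplotlib 3.10.9 was used for tables and figures. Alternatives were other scalings, pseudocounts, filters and thresholds, fits of the 4 libraries, a replicate block and each library left out. S3 values without the factor of 0.993 were added after the files were seen.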

Additional observations from a re-analysis of the deposited data

How the results depend on the processing

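The count of called genes was 3701, with 1846 higher and 1855 lower in S3. It ranged between 3412 and 4007 when 1 library was left out, with 1721 to 2036 higher and 1683 to 1971 lower. Without a fold threshold, 7467 genes passed the adjusted p (4384 higher, 3083 lower), since this drops the demand for a 2-fold change. The scaling moved the balance of the directions, with 1477 higher and 2099 lower under median-of-ratios scaling, 1522 and 2015 under upper-quartile scaling and 1623 and 1963 under quantile normalization. The count was 4699 with a pseudocount of 0.1, 2909 with 2, 3349 without a filter, 2886 when at least 5 FPKM were required, 3140 at an adjusted p of 0.01, 3677 in a fit of the 4 libraries and 3723 without the factor between the runs. Of the 3701 genes, between 77.8% and 100% were still called, the lowest share being that with 5 FPKM. The replicate numbers were not treated as pairs, since the deviations of same-numbered libraries from their group means had a correlation across genes of 0.06 between S3 and S1, and with the replicate block 3669 genes were called, 2 of the genes that the rule names lost their call, and 1 instead of 2 genes fell among the dehydrins and among the raffinose genes. No gene that the rule names reversed its direction in any alternative. Of these 161 genes, 21 lost their call without S1 replicate 1, 21 without S1 replicate 2, 13 without S3 replicate 1, 10 without S3 replicate 2, 1 without each W library, 10 without the filter, 8 with a pseudocount of 2, 6 each under median-of-ratios scaling and quantile normalization, 5 under upper-quartile scaling and 1 in the fit of the 4 libraries. With 5 FPKM required, 8 of them were not tested.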

Other observations

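Several well described genes outside the selection rule also differed between the third and the first dehydration, and they were looked up after values were seen. Their calls were kept in each of the 6 fits without 1 library. Gamma-glutamylcysteine synthetase 1 (GRMZM2G111579), which starts glutathione synthesis, had 324 and 149.6 FPKM in S3, against 10.4 and 11.4 FPKM in S1 (log2 change 4.21, SE 0.33, adjusted p = 0.00019). Lethal leaf-spot 1 (GRMZM2G339563), an oxygenase of chlorophyll breakdown, had 324 and 198 FPKM in S3, against 21.2 and 29.4 FPKM in S1 (log2 change 3.29, SE 0.26, adjusted p = 0.000206). Lysine-ketoglutarate reductase/saccharopine dehydrogenase 1 (GRMZM2G181362), which degrades lysine, had 430.5 and 318 FPKM in S3, against 56.5 and 88.9 FPKM in S1 (log2 change 2.37). 4-hydroxyphenylpyruvate dioxygenase 1 (GRMZM2G088396), of tyrosine breakdown and tocopherol synthesis, had 197 and 104 FPKM in S3, against 20.7 and 18.2 FPKM in S1 (log2 change 2.82). An aldehyde dehydrogenase of family 7 (GRMZM2G130440) had 910.2 and 849 FPKM in S3, against 163 and 283 FPKM in S1 (log2 change 2.03).

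In carbohydrate metabolism, sucrose synthase 1 (GRMZM2G089713), which splits sucrose, had 182 and 154 FPKM in S3, against 17.96 and 13.4 FPKM in S1 (log2 change 3.35, SE 0.21, adjusted p = 9.64e-05). Large subunit 2 of glucose-1-phosphate adenylyltransferase (GRMZM2G027955), the partner of the small subunit in starch synthesis, had 183 and 221 FPKM in S3, against 41.5 and 58.03 FPKM in S1 (log2 change 2.01). Alkaline alpha galactosidase 1 (GRMZM2G340656), which removes galactose from raffinose sugars, had 795 and 862 FPKM in S3, against 229.8 and 227 FPKM in S1 (log2 change 1.85). All of these were higher in S3. Pyruvate dehydrogenase kinase 1 (GRMZM2G107196), which switches off the entry of pyruvate into the TCA cycle, had 100.2 and 75.3 FPKM in S3, against 7.89 and 9.58 FPKM in S1 (log2 change 3.18). Drought-induced protein 1 (GRMZM2G098460) had 73.3 and 47.3 FPKM in S3, against 9.92 and 14.5 FPKM in S1 (log2 change 2.203), and 8.39 and 8.03 FPKM in W.

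Other genes of the chloroplast, some of them members of the lists, were also lower in S3. Ferredoxin-1 (GRMZM2G122337), the electron carrier after photosystem I, had 32.2 and 59.6 FPKM in S3, against 359 and 299.8 FPKM in S1 (log2 change -2.88, SE 0.38, adjusted p = 0.00126). Ferredoxin 2 (GRMZM2G048313) had 17.4 and 30.1 FPKM in S3, against 152 and 125 FPKM in S1 (log2 change -2.53). The CP24 precursor (GRMZM2G092427), a minor antenna protein, had 40.9 and 83.1 FPKM in S3, against 652 and 621 FPKM in S1 (log2 change -3.42). The triose phosphate translocator (GRMZM2G070605), which exports fixed carbon, had 186 and 340.4 FPKM in S3, against 984 and 925 FPKM in S1 (log2 change -1.92). The plastidic dicarboxylate transporter (GRMZM2G086258) had 16.5 and 39.8 FPKM in S3, against 167 and 151 FPKM in S1 (log2 change -2.58). Phosphoglycerate kinase (GRMZM2G089136) had 64.1 and 96.9 FPKM in S3, against 417 and 531 FPKM in S1 (log2 change -2.56), and subunit A of the plastid glyceraldehyde-3-phosphate dehydrogenase (GRMZM2G337113) had 353 and 419 FPKM in S3, against 1475 and 1483 FPKM in S1 (log2 change -1.94). Oil yellow 1 (GRMZM2G419806), a subunit of the magnesium chelatase of chlorophyll synthesis, had 25.8 and 44.5 FPKM in S3, against 176 and 170.1 FPKM in S1 (log2 change -2.32). Thiazole biosynthetic enzyme 1-2 (GRMZM2G074097), of thiamine synthesis, had 112 and 137 FPKM in S3, against 930.1 and 666 FPKM in S1 (log2 change -2.66).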
